A study of Mus musculus with 24 samples.

Results

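The genes described here encode the subunits of the mitochondrial respiratory chain and of ATP synthase, together with the assembly factors and tissue isoforms that carry the same symbol stems. They were chosen by gene symbol alone, as every gene whose platform symbol begins with Nduf, Uqcr, Atp5 or Cox followed by 4 to 8, plus Sdha, Sdhb, Sdhc, Sdhd and Cyc1. The annotation held 99 such symbols, and 91 of them had a probe set with that single symbol, out of 18193 genes measured. By symbol stem, 44 of the 91 were assigned to complex I, 4 to complex II, 9 to complex III, 17 to complex IV and 17 to complex V, which is ATP synthase. Ndufa4 and Ndufa4l2 count under complex I by that rule. The other 8 symbols, among them Ndufs6 and Ndufa11, were not analysed here.

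Liver RNA came from 24 male BALB/c mice, 6 weeks old at purchase, held for 1 week on a nonpurified diet and then given their test diet for 14 days, with 1 Affymetrix expression array per mouse. All groups ate AIN93G, a purified rodent diet. The control group of 6 mice received it alone, and the other groups of 6 mice each received it with 0.1%, 0.5% or 1.0% quercetin, a plant flavonol. The comparison asks whether quercetin at any of these doses shifted the liver transcripts of oxidative phosphorylation, complex by complex. Each cage held 3 mice, and cage labels were not used here, so cage and diet cannot be told apart.

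The respiratory chain passes electrons from NADH through complex I, or from succinate through complex II, to ubiquinone, and then through complex III and cytochrome c to complex IV, where oxygen is reduced to water. Complexes I, III and IV pump protons across the inner mitochondrial membrane, and ATP synthase uses the return flow to make ATP. Most subunits are encoded in the nucleus, a few in mitochondrial DNA, and hepatocytes, which run urea synthesis and gluconeogenesis, are rich in them. Values below are log2(intensity + 1) after quantile normalization between arrays, and differences are on that log2 scale, which understates changes of dim genes. Standard errors (SE) and tests come from limma over all 24 arrays, and a gene was called at a Benjamini-Hochberg adjusted p under 0.05 over the 18193 genes. In bulk liver, fewer cells of a type and less RNA per cell cannot be told apart.

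Array medians of the deposited intensities ran from 4.78 to 7.58, and precision is limited by having 6 arrays in each group. The 11 measured hepatocyte markers, such as Hnf4a, averaged 12.1 to 12.4 on every array, and the 11 striated muscle and brown fat markers 1.28 to 2.27. The 8 neutrophil markers averaged 2.41 to 2.93 in control and 2.84 to 3.68 at 1.0%, where 7 of them stood above control and 0 were called. Of the 24 arrays, 4 lay far from the rest on principal component 1 of all genes, replicates 4 and 6 at 0.5% and replicates 4 and 5 at 1.0%. The counts of each complex and the genes that moved most without those arrays are given both ways.

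No gene of the respiratory chain or ATP synthase passed the test against control at any dose of quercetin. The count called by limma was 0 of 91 at 0.1%, where 0% of all genes were called, 0 of 91 at 0.5% against 0.0165% of all genes, and 0 of 91 at 1.0% against 0.022%. No member, 0 of 91, was called for the slope over dose either, against 0.0989% of all genes. At an unadjusted p under 0.05 the members counted 0 at 0.1%, 3 at 0.5%, 3 at 1.0% and 2 for the slope, against 5.11%, 7.65%, 8.92% and 10.9% of all genes. Those member counts are 0%, 3.3%, 3.3% and 2.2% of 91, below the share of all genes in each case. The smallest adjusted p among members from limma was 0.993 at 0.1%, 0.563 at 0.5%, 0.416 at 1.0% and 0.213 over the dose slope.

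Comparisons between doses gave the same count. Between 0.5% and 0.1%, 0 of 91 were called while 0.214% of all genes were, and between 1.0% and 0.1%, 0 of 91 against 0.253%. Between 1.0% and 0.5%, 0 of 91 were called against 0.022%, and for any difference among the groups 0 of 91 against 0.181%. Members with an unadjusted limma p under 0.05 numbered 3, 4, 1 and 1 in these comparisons, against 10.1%, 9.42%, 6.19% and 9.49% of all genes. Ndufaf4, a complex I assembly factor, was among them in both comparisons with 0.1%. It stood 0.35 above 0.1% at the 0.5% dose (SE 0.153, adjusted p = 0.422, limma) and 0.33 above it at 1.0% (adjusted p = 0.513). Its 0.1% arrays ran from 7.15 to 7.42 and its control arrays from 7.19 to 7.68, so the 0.1% arrays overlapped the lower end of the control range. The 4 arrays apart held 7.69 to 8.12, and without them the differences from 0.1% were 0.26 at 0.5% and 0.14 at 1.0% (adjusted p = 0.771 and 0.871, limma). A dimmer probe set of Ndufaf4, with a mean of 6.44, moved less. It stood -0.04, 0.04 and 0.05 from control at 0.1%, 0.5% and 1.0%, against -0.22, 0.13 and 0.10 for the one used.

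The absence of calls came with narrow intervals for most members. Signal was high: 69 of the 91 genes averaged at least 9, which placed them between the 96th and 99.9th percentile of all genes, and these 69 take in 31 genes of complex I, all 4 of complex II, all 9 of complex III, 8 of complex IV and all 17 of complex V. Signal is a property of the probe set as well as of the transcript, so these levels do not rank the transcripts. Uqcrb, a ubiquinone-binding subunit of complex III, averaged 12.59, and Atp5g3, which encodes the rotating c ring of ATP synthase, averaged 12.00. For each of these 69 genes the 95% interval of the difference from control lay within 1.5-fold at 0.1%, at 0.5% and at 1.0%. The interval bounds over the 69 genes ran from -0.31 to 0.45 at 0.1%, from -0.39 to 0.55 at 0.5% and from -0.48 to 0.36 at 1.0%, with a median half-width of 0.16. Over all 91 genes, 83, 81 and 81 met that bound. These intervals are per gene and are not widened for the number of genes. Without normalization between arrays the numbers within 1.5-fold among the 69 were 66, 52 and 67, and with each array centred on its median 69, 67 and 68.

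**Figure D1:**
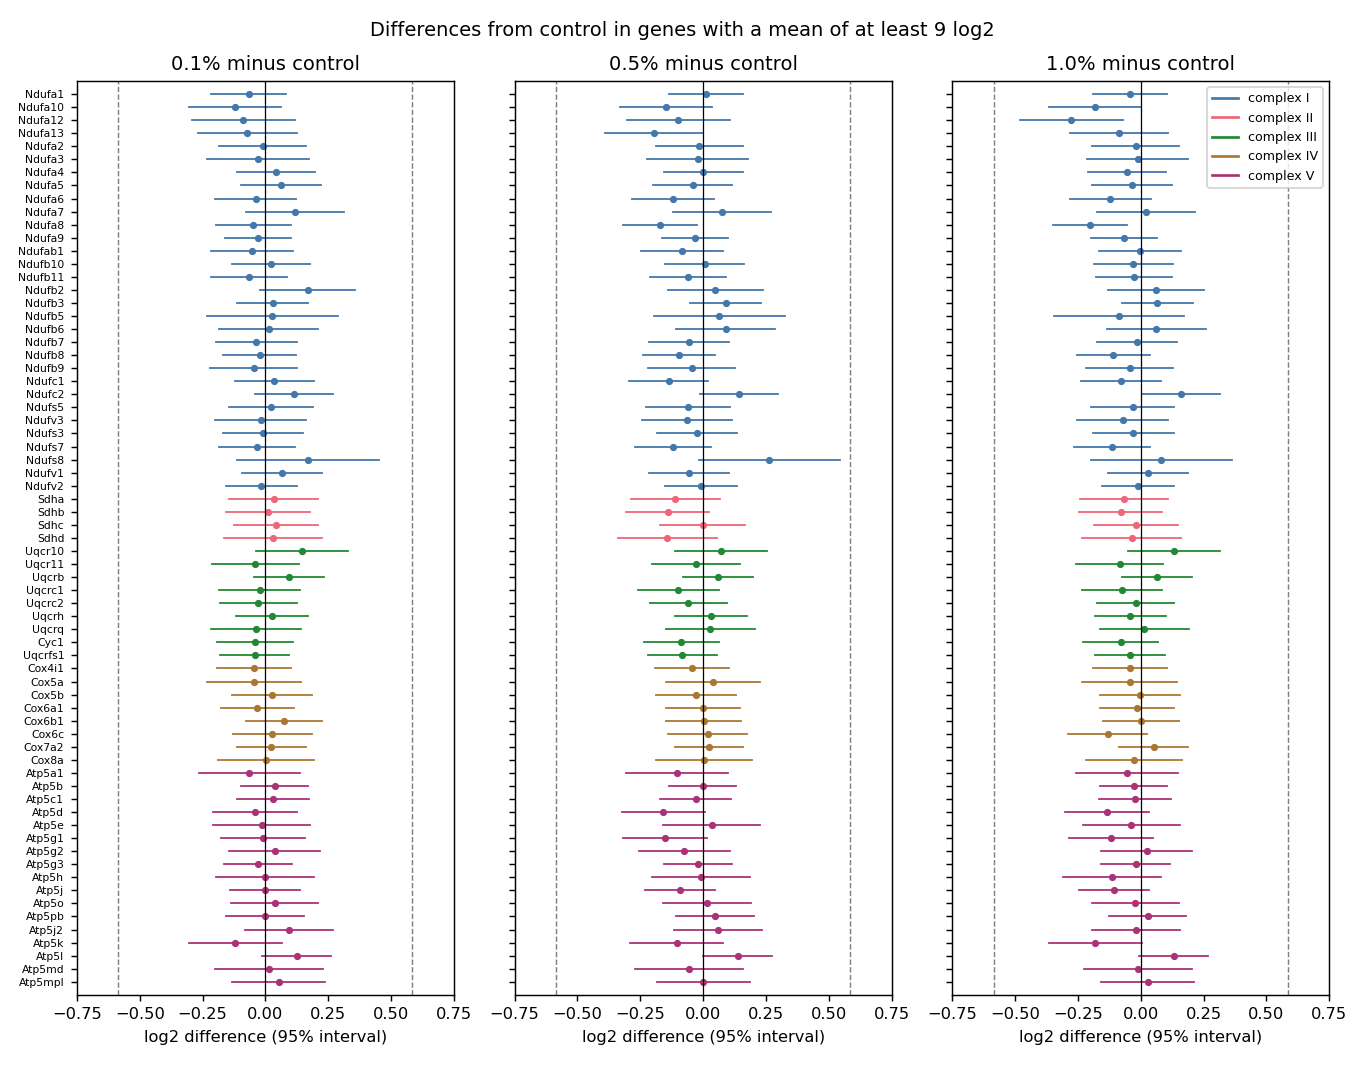
Difference from control (log2, x axis) with its 95% interval from limma for the 69 genes that averaged at least 9, in 1 row per gene and 1 panel per dose, coloured by complex. Dashed lines mark 1.5-fold, and all intervals lie between them, with Ndufa12 reaching lowest at 1.0% and Ndufs8 highest at 0.5%.

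Spread among mice of a group was small for these genes. The median within-group standard deviation was 0.099 for the 69 bright members, against 0.131 for the 731 other genes that averaged at least 9 and 0.502 over all genes. For the genes of complex III the median was 0.087. Ndufa9, an accessory subunit of complex I, had the smallest spread of the 91 at 0.055, and Atp5b, the catalytic beta subunit of ATP synthase, followed at 0.057. Ndufs8, an iron-sulfur subunit of complex I, had the largest among bright members at 0.224. Its control arrays ran from 9.66 to 10.20 with a median of 9.92, and its 1.0% arrays from 9.52 to 10.29 with a median of 10.10, so the groups overlapped over nearly their whole range. At 0.5% the probe set used for Ndufs8 stood 0.26 above control. Its other bright probe sets had the opposite sign there, at -0.03 and -0.09.

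**Figure D2:**
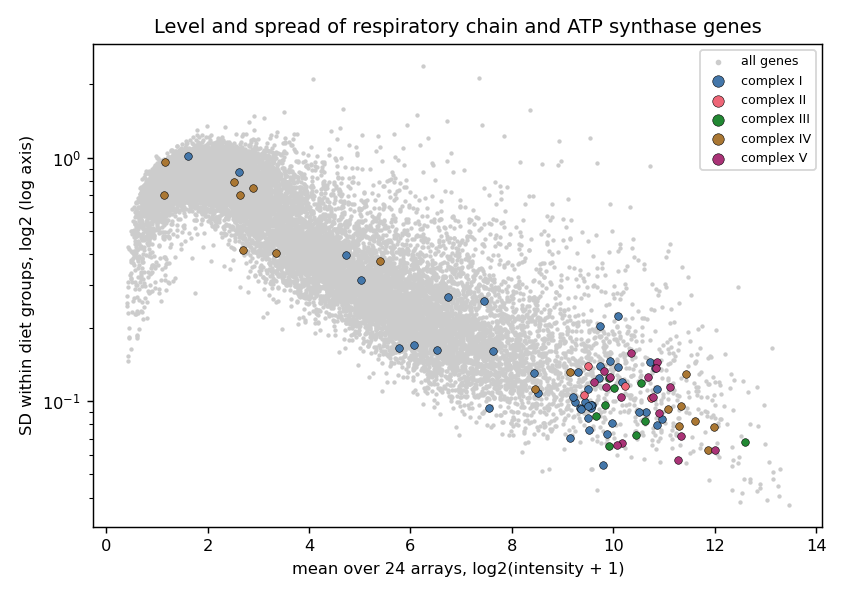
Standard deviation within diet groups (log2, y axis, logarithmic) against mean signal over 24 arrays (x axis) for all 18193 genes in grey and the 91 respiratory chain and ATP synthase genes by complex in colour. Most members sit at the bright, low-spread end, and 9 members below 4 sit among the dim genes.

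Complex I takes electrons from NADH. The 5 members with an unadjusted limma p under 0.05 at 0.5%, at 1.0% or for the slope all carry Nduf symbols, as do 44 of the 91. They were assigned to complex I by that stem, and they include Ndufa4l2, described below with the isoforms. Ndufa8, an accessory subunit that faces the intermembrane space, had the smallest p of all members for the slope. Its control arrays ran from 10.01 to 10.15 with a median of 10.07. At 0.1% they ran from 9.91 to 10.18 with a median of 9.99. At 0.5% they ran from 9.83 to 10.04 with a median of 9.86. At 1.0% they ran from 9.79 to 9.96 with a median of 9.86, so after quantile normalization every 1.0% array lay below every control array. The deposited intensities overlapped, at 766.6 to 1309 in control and 643.5 to 1126 at 1.0%. Ndufa8 was the 1 member of 91 that lay lower than control without overlap at 1.0%, where 0.396% of all genes did, and 0 of 91 lay higher, where 0.401% did. At 0.5%, 0 of 91 lay lower and 0 higher without overlap, against 0.264% and 0.192% of all genes, and at 0.1% the counts were again 0 and 0, against 0.203% and 0.187%. Its difference from control was -0.20 at 1.0% (SE 0.0716, adjusted p = 0.416, limma), a 95% interval of -21.6% to -3.63%, and its slope was -0.20 per 1% quercetin (SE 0.0638, adjusted p = 0.213). Neither passed, and without normalization between arrays the 1.0% difference was -0.17 (SE 0.165, adjusted p = 1, limma). At 0.5% the difference of -0.17 was 0.05 without that step. Without the 4 arrays apart the 1.0% difference was -0.20 (adjusted p = 0.526) and the slope -0.20 (adjusted p = 0.375). A single probe set measures Ndufa8.

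Ndufa12, an accessory subunit of the matrix arm, stood 0.28 below control at 1.0% (SE 0.0983, adjusted p = 0.416, limma). Control arrays ran from 9.68 to 10.21 with a median of 10.13, and 1.0% arrays from 9.66 to 9.96 with a median of 9.76. The overlap was set by control replicate 3, at 9.68, while the next lowest control array was at 10.04. The other bright probe sets of Ndufa12 stood -0.23 and -0.09 from control at 1.0%, the same sign as the one used. The slope was -0.24 (adjusted p = 0.282).

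Ndufc2, an accessory subunit of the membrane arm, was the 1 member above control among those with an unadjusted p under 0.05 at 1.0%. Its control arrays ran from 10.23 to 10.55 with a median of 10.39, and its 1.0% arrays from 10.44 to 10.71 with a median of 10.54. The ranges overlapped, and the difference was 0.16 (SE 0.0748, adjusted p = 0.551, limma). Its other probe sets stood 0.01, -0.04 and -0.04 from control, so the difference rests on 1 probe set.

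Further complex I genes with low p were Ndufa13 and Ndufa10, both accessory subunits. Ndufa13 stood 0.20 below control at 0.5% (SE 0.0942, adjusted p = 0.651, limma) and 0.09 below it at 1.0%, and without the 4 arrays apart the 1.0% difference was 0.0022. Ndufa10 stood 0.18 below control at 1.0% (SE 0.0886, adjusted p = 0.559), with control arrays from 9.69 to 9.91 and 1.0% arrays from 9.45 to 9.79. Ndufb2, another accessory subunit, had the second smallest p at 0.1%, 0.17 above control (SE 0.0917, adjusted p = 0.993). The 6 core subunits measured, which carry the NADH site and the iron-sulfur clusters, ranged from -0.12 to 0.08 at 1.0%. Ndufv1, which binds NADH, stood 0.03 above control at 1.0%, and Ndufs1, the large iron-sulfur subunit, 0.12 below it (adjusted p = 0.729, limma). The other bright probe sets of Ndufv1 had the opposite sign, -0.06 and -0.08 from control at 1.0%. Across complex I, 13 of 44 genes stood above and 31 below control at 1.0%, with a median of -0.031, while without normalization between arrays 23 stood above and 21 below. With each array centred on its median 5 stood above and 39 below, with a median of -0.105, and without the 4 arrays apart 19 stood above and 25 below, with a median of -0.0094. The 8 assembly factors, Ndufaf1 to Ndufaf8, were dimmer, with mean signals from 4.73 to 7.63, and ranged from -0.19 to 0.10 at 1.0%. Of the 731 other genes that averaged at least 9, 60.1% stood below control at 1.0%. With median centring 80.6% of them did, with a median of -0.0987, against 57.8% of all genes. The share of those 731 was 46.9% without normalization between arrays and 50.8% without the 4 arrays apart. These shares are also the reference for the counts of the other complexes below.

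**Figure D3:**
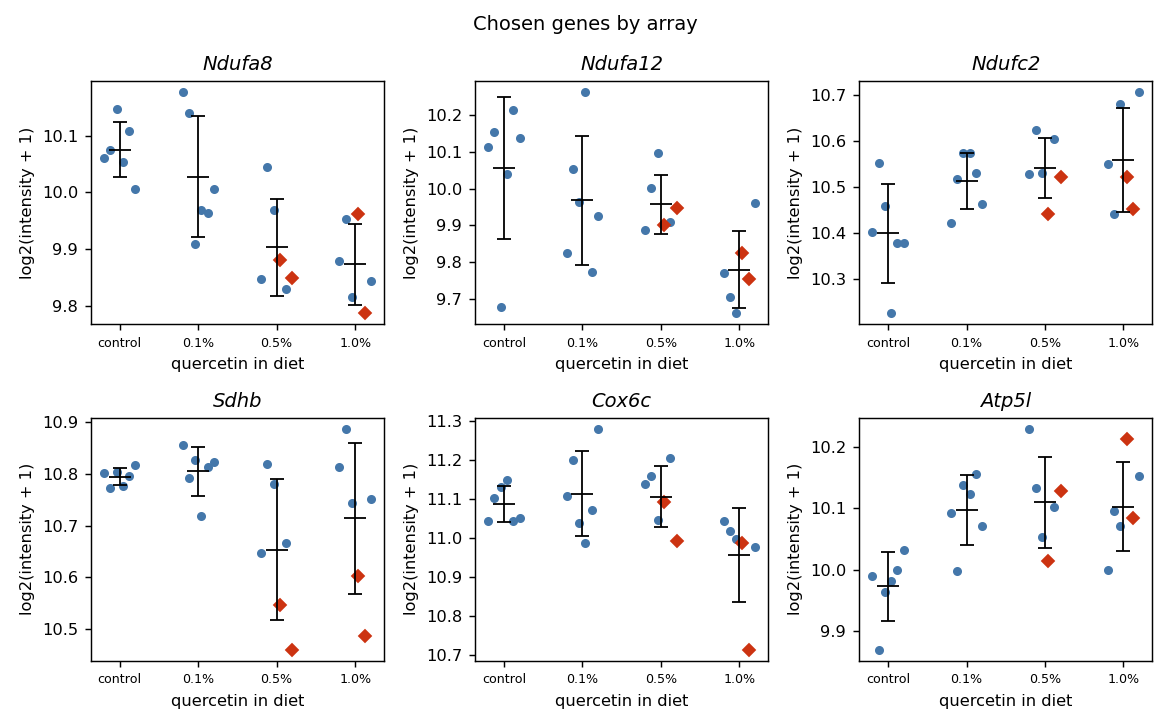
Signal of 6 genes, log2(intensity + 1), on each array (y axis) by quercetin in the diet (x axis), with bars for mean and SD of 6 mice and red diamonds for the 4 arrays far from the rest on principal component 1. Ndufa8 at 1.0% lies below all control arrays, and Sdhb has its 4 lowest values on the diamonds. Those arrays were picked as extremes over all genes.

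Complex II, succinate dehydrogenase, joins the citric acid cycle to the chain. Sdhb, its iron-sulfur subunit, ran from 10.77 to 10.82 in control with a median of 10.80 and an SD of 0.017. At 0.1% it ran from 10.72 to 10.86 with a median of 10.82. At 0.5% it ran from 10.46 to 10.82 with a median of 10.66, and at 1.0% from 10.49 to 10.89 with a median of 10.75. The spread was wider at both higher doses, and the lowest arrays of those groups were the ones that stood apart: they held 10.46 to 10.60, against 10.65 to 10.89 in the other 20 arrays. Sdhb was the 1 member of 91 whose 4 lowest arrays were those 4. The share of all genes with that order was not counted. Those arrays were picked as extremes over all genes, so the order cannot be read as a trait of Sdhb. The wider spread was not particular to Sdhb either. The per-array mean of the 69 bright genes had an SD of 0.0157 in control and 0.0295 at 0.1%. At 0.5% that SD was 0.0617 and at 1.0% 0.0609, while the limma fit used a spread shared by all groups. The difference of Sdhb from control was -0.14 at 0.5% (SE 0.0797, adjusted p = 0.703, limma) and -0.08 at 1.0% (adjusted p = 0.825). Without the 4 arrays these became -0.07 and 0.0041.

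The other subunits of complex II leaned with Sdhb. Sdha, the flavoprotein that oxidizes succinate, stood 0.11 below control at 0.5% and 0.07 below it at 1.0% (adjusted p = 0.871, limma). Sdhd, a membrane anchor, stood 0.14 below control at 0.5% and 0.04 below it at 1.0% (adjusted p = 0.948), and it had the widest spread of the complex at 0.139. Sdhc, the other anchor, stood 0.0022 below control at 0.5% and 0.02 below it at 1.0% (adjusted p = 0.968). All 4 genes stood below control at 1.0%, with a median of -0.051. With each array centred on its median all 4 stood below it, with a median of -0.125. Without normalization between arrays 2 stood above and 2 below, and without the 4 arrays apart all 4 stood above it, with a median of 0.017. At 0.5% all 4 stood below control, with a median of -0.126. There, without the 4 arrays apart, 1 stood above and 3 below, with a median of -0.0767. With no normalization between arrays all 4 stood above control at 0.5%, with a median of 0.102, and with median centring 3 stood above and 1 below. The mean of the 4 genes, taken per array against its mean over 24 arrays, ran from -0.21 to -0.12 on the 4 arrays apart and from -0.11 to 0.19 on the others. Those arrays were picked as extremes over all genes, so this order cannot be read as a trait of complex II. Other complexes were low on these arrays too. Of the 4 arrays apart, 3 were among the 4 lowest for complex I, for complex V and for all 69 bright genes. For complexes III and IV the number was 2 each. The part of those arrays in the lean of complex II was not tested beyond leaving them out.

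**Figure D4:**
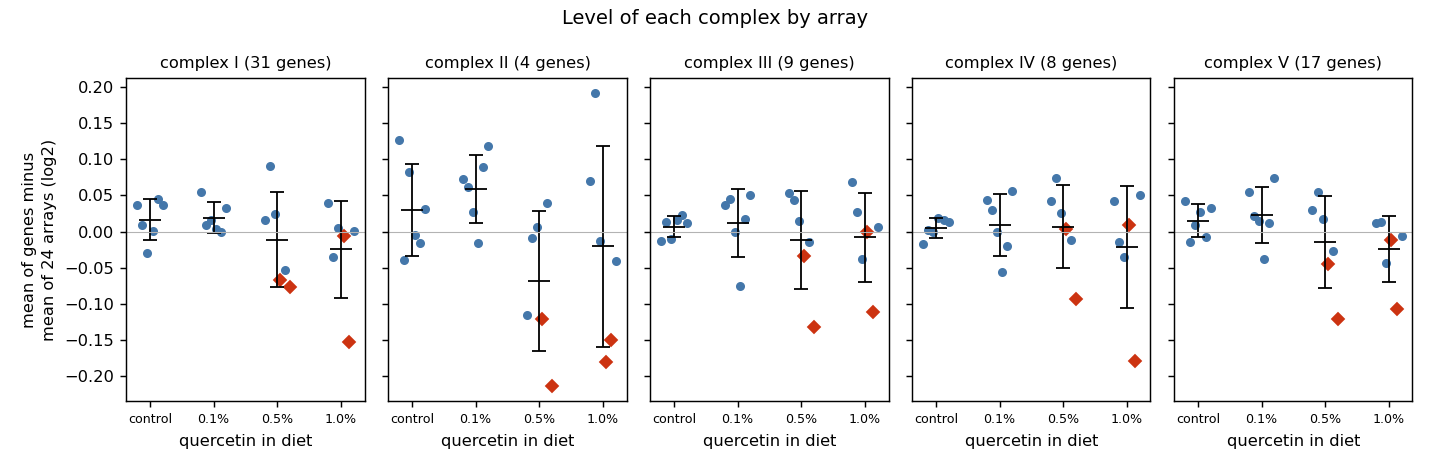
Mean of the genes of each complex that averaged at least 9, minus its mean over the 24 arrays (log2, y axis), on each array by quercetin in the diet (x axis), with bars for mean and SD of 6 mice and red diamonds for the 4 arrays apart. Groups overlap in every complex, and in complex II the diamonds are the 4 lowest arrays, at -0.21 to -0.12. The diamonds were picked as extremes over all genes, so that order cannot be read as a trait of complex II.

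Promoter letters were read for the members because they are an attribute that the choice by symbol did not use. RefSeq promoters of GRCm38.p6, from 250 bases before to 50 after the start, were found for 74 of the 91 genes, as 79 promoters. The searches covered both strands. A pattern for the factor NRF1, GCGC followed by any base, T and another GCGC, was in 22.8% of these promoters against 4.6% of all 32851. CCGGAAG, a pattern for ETS factors, was in 24.1% against 8.86%, and AAGATGGC, a pattern for YY1, in 12.7% against 2.75%. At least 1 of them was in 51.9% of member promoters against 14.7% of all, 6 member promoters held at least 2 of them, and matches of different patterns overlapped in 0. A match is a description of letters and no evidence of binding.

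Shown here are the 250 bases before the start of Ndufa8, the member without overlap, and of the complex II genes Sdha, Sdhb and Sdhd. Complex II was shown because its mean was lowest on the 4 arrays apart, an order that cannot be read as a trait of it. Capitals mark matches to the NRF1 pattern in Ndufa8 and Sdha, and to the NRF1 and then the ETS pattern in Sdhd. Sdhb has none in this stretch, and its ETS match lies after the start. They lie at chr2:36049339-36049588 on the minus strand (Ndufa8), chr13:74350241-74350490 on the minus strand (Sdha), chr4:140961021-140961270 on the plus strand (Sdhb) and chr9:50603850-50604099 on the minus strand (Sdhd), and each is written 5′ to 3′ along the gene.
Ndufa8: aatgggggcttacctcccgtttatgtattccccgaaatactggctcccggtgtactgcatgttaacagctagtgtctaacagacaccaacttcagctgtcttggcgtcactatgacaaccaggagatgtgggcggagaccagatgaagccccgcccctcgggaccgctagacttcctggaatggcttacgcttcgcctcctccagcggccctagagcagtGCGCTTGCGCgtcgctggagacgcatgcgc
Sdha: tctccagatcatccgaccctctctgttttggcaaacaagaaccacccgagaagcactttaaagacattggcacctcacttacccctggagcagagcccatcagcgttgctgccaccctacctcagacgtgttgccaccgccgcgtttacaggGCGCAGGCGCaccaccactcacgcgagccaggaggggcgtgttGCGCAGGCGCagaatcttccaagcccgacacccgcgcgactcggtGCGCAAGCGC
Sdhb: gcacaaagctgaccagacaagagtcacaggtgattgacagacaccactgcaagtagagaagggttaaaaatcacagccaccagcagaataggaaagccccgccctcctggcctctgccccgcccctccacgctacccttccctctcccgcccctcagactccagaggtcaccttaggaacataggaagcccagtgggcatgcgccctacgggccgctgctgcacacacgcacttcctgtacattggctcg
Sdhd: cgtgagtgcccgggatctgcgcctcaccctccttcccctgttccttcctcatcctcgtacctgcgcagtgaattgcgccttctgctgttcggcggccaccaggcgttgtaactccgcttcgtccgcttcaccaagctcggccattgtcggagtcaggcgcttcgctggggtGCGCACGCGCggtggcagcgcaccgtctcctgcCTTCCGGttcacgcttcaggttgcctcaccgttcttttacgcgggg
The match in Ndufa8 begins 30 bases before the start, those in Sdha begin 98, 55 and 10 bases before it, and those in Sdhd 79 and 46 bases before it.

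Complex III passes electrons from ubiquinol to cytochrome c. Cyc1, its cytochrome c1, ran from 10.55 to 10.75 in control with a median of 10.69 and from 10.51 to 10.78 at 1.0% with a median of 10.57. The groups overlapped, and the difference was -0.08 (SE 0.0723, adjusted p = 0.806, limma). Uqcrfs1, the Rieske iron-sulfur protein, stood 0.04 below control at 1.0% (adjusted p = 0.900), and Uqcrc1, a core protein on the matrix side, 0.07 below it (adjusted p = 0.835). These were 0.014 and 0.013 below control without the 4 arrays apart. Uqcr10, a small accessory subunit, went the other way, 0.14 above control at 0.1% (SE 0.0882, adjusted p = 0.997) and 0.13 above it at 1.0% (adjusted p = 0.704). It had the widest spread of complex III at 0.124, with control arrays from 9.77 to 9.88 and 1.0% arrays from 9.74 to 10.17. Of the 9 genes, 3 stood above and 6 below control at 1.0%, with a median of -0.041, and without normalization between arrays 4 stood above and 5 below. With each array centred on its median 1 stood above and 8 below, with a median of -0.113, and without the 4 arrays apart 3 stood above and 6 below, with a median of -0.014.

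Complex IV, cytochrome c oxidase, reduces oxygen. The ubiquitous nuclear-encoded subunits lay close to control: Cox4i1 stood 0.04 below it at 1.0% (adjusted p = 0.905, limma), Cox5a 0.04 below it (adjusted p = 0.927) and Cox5b 0.0031 below it (adjusted p = 0.995). The differences were 0.02 for Cox4i1, -0.10 for Cox5a and 0.07 for Cox5b without the 4 arrays apart. Cox4i1 ran from 11.25 to 11.38 in control and from 11.08 to 11.38 at 1.0%, and the ranges overlapped. Cox6c, a supernumerary subunit, had the lowest p of the complex for the slope, -0.14 per 1% quercetin (SE 0.0681, adjusted p = 0.473). It ran from 11.05 to 11.15 in control with a median of 11.08 and from 10.71 to 11.05 at 1.0% with a median of 10.99, the lowest array being replicate 5, which is among the 4 apart. Without those arrays its slope was -0.07 (adjusted p = 0.834). A further bright probe set of Cox6c had the opposite sign, 0.21 above control at 1.0%. Of all 17 genes of complex IV, isoforms included, 5 stood above and 12 below control at 1.0%, with a median of -0.027. The counts turned to 10 above and 7 below, with a median of 0.0175, without the 4 arrays apart, and without normalization between arrays 12 stood above and 5 below. Centring each array on its median gave 4 above and 13 below, with a median of -0.068.

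The tissue isoforms of complex IV were mostly dim. Cox6a2, Cox7a1 and Cox8b, known from heart and skeletal muscle, averaged 2.89, 3.34 and 1.14, each measured by its own probe set. Cox6b2 and Cox7b2, known from testis, averaged 2.52 and 1.16, and Cox4i2, known from lung, 2.63. All of these lie under 4, where 54.3% of all genes lie. Cox8c, a testis isoform, was the exception at 5.40 and stood 0.33 above control at 1.0% (adjusted p = 0.693, limma), with control arrays from 4.73 to 5.64 and 1.0% arrays from 5.15 to 6.17. That level rests on the probe set used, since a second Cox8c probe set averaged 1.85. Among dim genes the spread was wide: the 9 members under 4 had a median within-group standard deviation of 0.748. Cox6a2 ran from 2.47 to 3.64 in control and from 1.15 to 3.68 at 0.1%, 0.76 below control (SE 0.417, adjusted p = 0.993). Cox6b2 stood 0.68 below control at 0.1% (adjusted p = 0.997). Ndufa4l2, a homologue of Ndufa4 known as a hypoxia target, averaged 2.63 and stood 1.24 below control at 0.5% (SE 0.483, adjusted p = 0.563) but 0.0073 above it at 1.0%, which was -0.17 without the 4 arrays apart. Its arrays at 0.5% ran from 1.04 to 2.50 and those of control from 1.53 to 4.08. By its symbol it is counted under complex I here.

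Cox7c and Ndufb4 are ubiquitous subunits, yet the probe sets that represent them averaged 2.70 and 1.62. Their values therefore say little about those transcripts. Ndufb4 had the widest spread of all members at 1.01, with control arrays from 0.25 to 2.78 and 1.0% arrays from 0.72 to 2.91.

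ATP synthase has a soluble catalytic head, a membrane ring and stalks that join them. The head genes lay near control at 1.0%: Atp5a1, the alpha subunit, stood 0.05 below (adjusted p = 0.920, limma), Atp5b 0.03 below (adjusted p = 0.937) and Atp5c1, the gamma subunit, 0.02 below (adjusted p = 0.955). Atp5b ran from 11.24 to 11.36 in control with a median of 11.26 and from 11.16 to 11.35 at 1.0% with a median of 11.24, and the ranges overlapped. Atp5d, the delta subunit, stood 0.16 below control at 0.5% (SE 0.0803, adjusted p = 0.666) and 0.13 below it at 1.0% (adjusted p = 0.669), which was 0.08 below without the 4 arrays apart. All 5 head genes stood below control at 1.0%, with a median of -0.037, but 2 of them, Atp5b and Atp5c1, stood above it without normalization between arrays. Leaving out the 4 arrays apart left 2 above and 3 below, with a median of -0.0011.

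In the stalk, Atp5j, coupling factor 6, had a slope of -0.12 (SE 0.0590, adjusted p = 0.484, limma). It ran from 10.18 to 10.31 in control and from 10.04 to 10.22 at 1.0%. Among the supernumerary membrane subunits, Atp5l and Atp5k stood on opposite sides of control. Atp5l, subunit g, ran from 9.87 to 10.03 in control with a median of 9.99 and from 9.998 to 10.16 at 0.1% with a median of 10.11, and the ranges met in a narrow overlap. It stood 0.12 above control at 0.1%, 0.14 at 0.5% and 0.13 at 1.0% (SE 0.0667 each, adjusted p = 0.993, 0.657 and 0.608), so the values showed no order over dose. Atp5k, subunit e, stood 0.18 below control at 1.0% (SE 0.0890, adjusted p = 0.576), while its other bright probe sets stood -0.0021 and -0.09 from control. Atp5md, a small subunit of the dimer interface, had the widest spread of the complex at 0.158. Of the 17 genes, 4 stood above and 13 below control at 1.0%, with a median of -0.023, while without normalization between arrays 10 stood above and 7 below. Centring each array on its median gave 1 above and 16 below, with a median of -0.097, and without the 4 arrays apart 6 stood above and 11 below, with a median of -0.013.

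Over all 91 genes the median difference was small and just below control: -0.013 at 0.1%, -0.032 at 0.5% and -0.029 at 1.0%, against 0.012, -0.021 and -0.0099 over all genes. At 1.0%, 66 of 91 members (72.5%) stood below control, against 51.6% of all genes and 60.1% of the 731 other genes that averaged at least 9. Of the 69 bright members 76.8% stood below control. For those other bright genes the median was -0.030, and for the 69 bright members -0.029. Without the 4 arrays apart, 49 of 91 (53.8%) stood below control at 1.0% with a median of -0.0049, where 48.6% of all genes did. At 0.5% 46 of 91 (50.5%) did, with a median of -0.0038, against 50% of all genes. Other scalings moved these medians: with no normalization between arrays they were 0.081 at 0.1%, 0.168 at 0.5% and 0.010 at 1.0%, where all genes had 0.111, 0.146 and 0.054. With each array centred on its median they were -0.047, 0.083 and -0.100, where all genes had -0.017, 0.060 and -0.056. The direction of the median therefore turned at each dose under at least 1 of these scalings.

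**Figure D5:**
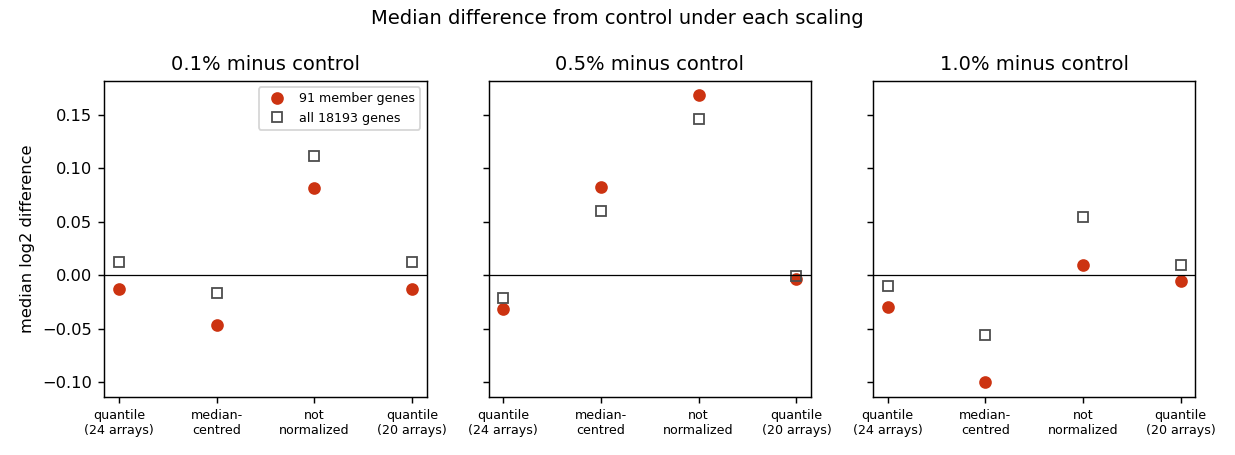
Median log2 difference from control (y axis) over the 91 member genes (red points) and over all 18193 genes (open squares) under 4 settings (x axis), in 1 panel per dose. At 0.5% the member median is -0.032 after quantile normalization and 0.168 without normalization, and it moves with the median of all genes.

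Other genes of mitochondrial energy metabolism gave 0 calls by limma in each list, for 1.0% against control and for the slope. The genes encoded in mitochondrial DNA were looked up under 26 symbols, which include alternative spellings, and 1 was measured, ND5, a membrane subunit of complex I, at 13.1 in both control and 1.0%. Of 41 assembly factors outside the symbol stems, 19 stood above and 22 below control at 1.0%, and without the 4 arrays apart 25 stood above. For the slope 6 had an unadjusted p under 0.05, 1 up and 5 down, where 10.9% of all genes did. Oxa1l, which inserts proteins into the inner membrane, had a slope of -0.48 (SE 0.123, adjusted p = 0.108, limma), and Sco1, which delivers copper to complex IV, -0.36 (adjusted p = 0.206). Of 16 genes for cytochrome c and inner membrane carriers, 9 stood above and 7 below control at 1.0%, and 12 stood above without the 4 arrays apart. Slc25a11, the oxoglutarate carrier, had a slope of -0.29 (adjusted p = 0.405) and Slc25a13, an aspartate-glutamate carrier, 0.21 (adjusted p = 0.445).

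Of 17 citric acid cycle genes, 4 stood above and 13 below control at 1.0%, with a median of -0.065 and 0 called by limma, while 4 had an unadjusted p under 0.05 for the slope, where 10.9% of all genes did. The median of the list at 1.0% was -0.042 without the 4 arrays apart. Idh3a, a subunit of NAD-dependent isocitrate dehydrogenase, had a slope of -0.32 (SE 0.0894, adjusted p = 0.155), and Cs, citrate synthase, -0.51 (SE 0.173, adjusted p = 0.250). Of 21 nuclear regulators of mitochondrial genes, 11 stood above and 10 below control at 1.0%. Gabpb2, a subunit of an ETS-family factor, had a slope of -0.44 (adjusted p = 0.214), and Esrra, a nuclear receptor that drives oxidative genes, -0.46 (adjusted p = 0.337).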

How the data were processed

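Liver RNA of 24 mice in 4 diet groups of 6 was measured on 1 Affymetrix mouse array each. Linear intensity values of 45101 probe sets are what the authors deposited. How they were summarised, background-corrected or scaled is not given in the sources used here. Groups were taken from the labels. Probe sets with 1 gene symbol in the platform annotation (34945) were used, those with several (932), those not listed (9211) and 13 control sets with a symbol were left out, and for each of 18193 genes the probe set of highest mean signal was taken. Values were log2(intensity + 1), quantile-normalized, and fitted with limma 3.58.1 under R 4.3.3 (lmFit and eBayes, two-sided, 24 arrays in 1 fit) to compare every dose with control and with the other doses, and to test any difference and the slope per 1% quercetin. P-values were adjusted by Benjamini-Hochberg over all genes at 0.05. The fit was also run on simulated arrays. Their noise was independent between genes and of equal spread in every group, so they cannot stand for data with 4 arrays apart.

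Named genes were members that passed, the 5 smallest p in each comparison with control and for the slope, listed core subunits and isoforms, the widest spread per complex, and up to 2 genes of each other list with the smallest slope p. Genes outside these that are described for their level, spread or dose differences were chosen after their values were seen. The members and lists were chosen with earlier results of these data known. Nothing in the labels says how same-numbered mice are related. Over 36 same-number pairs the correlation of deviations ran from -0.064 to 0.111, so the numbers were not taken to pair the samples. The lowest correlation between 2 arrays was 0.920 and the highest 0.953, and at most 2 probe sets were identical between arrays. P-values set each difference against a spread between mice that all groups share, with no term for cage. Sequences were read from RefSeq promoters of GRCm38.p6.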

Additional observations from a re-analysis of the deposited data

Results flagged for a closer look

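In groups of 6 arrays, 12 of 172 groups tested (6.98%), over 37 named genes and 6 complex levels, had 1 array whose gap to the nearest other was large for the range of the group. Chance flags about 1 group in 20. In control, Ndufa12 was lowest on replicate 3 at 9.677 against 10.04 for the next array, Cyc1 on replicate 3 at 10.55 against 10.68, and Cox5b on replicate 2 at 11.24 against 11.32. At 0.1%, replicate 4 was lowest for Ndufb2 at 9.161 against 9.387, for Ndufs1 at 8.439 against 8.522 and for Atp5md at 9.854 against 10.42. At 0.5%, Ndufs1 was lowest on replicate 4 at 8.204 against 8.443, and Atp5d on replicate 6 at 10.56 against 10.69. At 1.0%, Cox6c was lowest on replicate 5 at 10.71 against 10.98, and Atp5a1 was highest on replicate 2 at 11.17 against 10.84. The mean of the 8 bright complex IV genes was lowest at 1.0% on replicate 5, at 11.03 against 11.17. The mean of all 69 bright genes was lowest on the same array, at 10.14 against 10.26.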

How the results depend on the processing

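The count of called members was 0 of 91 in every comparison under the 10 alternatives and the 24 fits that left out 1 array each. The lowest adjusted p over these, from limma, was 0.784 at 0.1%, 0.342 at 0.5%, 0.191 at 1.0% and 0.0625 for the slope (Ndufa8, with an intensity trend and robust eBayes), where adjusted p for Ndufa8 ran up to 0.918. The medians over members moved beyond the spread between arrays (0.054) under other scalings. Without normalization between arrays they were 0.0813 at 0.1%, 0.168 at 0.5%, 0.0758 for 0.5% against 0.1%, -0.0882 for 1.0% against 0.1% and -0.169 for 1.0% against 0.5%. With each array centred on its median they were 0.0825 at 0.5%, -0.0999 at 1.0%, 0.118 for 0.5% against 0.1% and -0.193 for 1.0% against 0.5%. In each case the median of all genes had the same sign. The cause was not tested. Leaving out 1 array moved the median between -0.0427 and -0.0134 at 1.0% and between -0.0233 and 0.0105 at 0.1%. Over 46 results for named genes, 59 of 1548 values had the other sign and 0 were called. With the replicate number as a block, which the data do not support as a pairing, 0 of 91 members were called in each comparison, with a lowest adjusted p of 0.453 at 1.0% and 0.266 for the slope. With replicates 1 to 3 and 4 to 6 as sets the consensus correlation was 0.0445, and 0.0565 for the slope. The depth limit is signal: for the 9 members under 4 the intervals are wide, and Cox7c and Ndufb4 were read only by dim probe sets.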

Other observations

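The mitochondrial ribosome, which translates the subunits encoded in mitochondrial DNA, gave 0 calls by limma among 76 genes, with 33 above and 43 below control at 1.0% and 5 at an unadjusted p under 0.05, where 8.92% of all genes were. Mrps5 had a slope of -0.21 per 1% quercetin (SE 0.0731, adjusted p = 0.272), and Mrpl18 one of -0.22 (adjusted p = 0.333). Without the 4 arrays that stood apart, 43 of the 76 stood above control at 1.0%.

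Markers of other cell types also gave 0 calls by limma at 1.0% and for the slope. At 1.0%, 4 of 11 Kupffer cell and macrophage markers, 4 of 10 endothelial, 3 of 10 stellate cell, 7 of 9 lymphocyte, 0 of 4 erythroid and 6 of 11 striated muscle and brown fat markers stood above control. Without the 4 arrays these counts were 6, 6, 6, 6, 2 and 7. The neutrophil marker S100a8 averaged 3.67 in control and 4.62 at 1.0%, with a slope of 1.13 (SE 0.479, adjusted p = 0.382). Hnf4a, a hepatocyte regulator, had a slope of 0.48 (adjusted p = 0.237), and Tat, tyrosine aminotransferase, one of -0.52 (adjusted p = 0.421).

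Of the 39 other probe sets of members that averaged at least 9, in 29 genes, 26 had the same sign at 1.0% as the probe set used and 13 the opposite sign. Over the 180 probe sets of members, tested among 34945, 0 were called by limma at 1.0% or for the slope.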
